A study of Homo sapiens with 6 samples.

Results

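Simple epithelial keratins are the intermediate filament proteins of single-layered epithelia. They were followed here as KRT8 and KRT18, the pair that hepatocytes make, and KRT7 and KRT19, which mark bile duct cells and liver progenitors. Their m6A peaks were taken as every row of the deposited peak lists that names one of these 4 genes, which gave 16 peaks of 84651, 7 in the FB23-2 list and 9 in the DMSO list. The genes were chosen by their family and with their numbers of list-only peaks known (DMSO-only in KRT8, FB23-2-only in KRT18), so those counts are given as a description.

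The peaks come from methylated RNA immunoprecipitation sequencing (MeRIP-seq), in which an antibody enriches fragments of poly(A) RNA that carry N6-methyladenosine (m6A). The cells were MHCC97H, a human hepatocellular carcinoma line, given 2 µM FB23-2 for 48 h (3 samples) or DMSO as vehicle (3 samples). FB23-2 inhibits FTO, an enzyme that removes m6A, and the series looked for its targets through FTO. Each treatment has 1 pooled peak list with no values per sample, and nothing here could be set against the variation among samples. Read depth is unknown, and the labels do not say whether samples were separate cultures.

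Keratins assemble only as heterodimers of a type I and a type II protein. KRT18 and KRT19 are type I, and KRT7 and KRT8 are type II. KRT8 and KRT18 protect hepatocytes against mechanical and toxic stress and form the inclusions called Mallory-Denk bodies. KRT7 and KRT19 in liver tumours are read as signs of a biliary or progenitor phenotype. m6A is laid down mostly near stop codons and in 3' untranslated regions (UTRs), where reader proteins affect how long an mRNA lasts. In the deposited annotation the 4 genes share 7 Gene Ontology terms, among them intermediate filament, keratinization and cornification.

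Of the 9 hepatocyte markers, 3 had a peak in each list, namely KRT8, KRT18 and the transcription factor HNF4A, while ALB, APOA1, APOB, TTR, SERPINA1 and AFP had none in either. A gene without a peak can be transcribed without m6A or be too rare to call, and the tables cannot tell these apart. Of the 6 biliary and progenitor markers 4 had a peak in each list, with KRT7, SOX9 and EPCAM in both, KRT19 under FB23-2 and SPP1 under DMSO. PROM1 had none in either. All 3 mesenchymal markers (VIM, COL1A1, COL1A2) and the endothelial marker CDH5 had peaks in both lists, while PECAM1 and the leukocyte marker PTPRC had none.

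A peak counted as shared when it overlapped one from the other treatment, on its own strand, along at least 50% of whichever was shorter, and as list-only otherwise. The log2 fold change, p and annotation class of each peak are the authors' own. The fold is taken to be that of precipitated over input RNA, as no header says, and serves only to place a peak within its own list. Positions are on GRCh38, 1-based with both ends included. Over the 4 keratins, 2 of 7 FB23-2 peaks were FB23-2-only and 4 of 9 DMSO peaks were DMSO-only. Over all peaks the FB23-2-only share was 17.3% (exact 95% interval 16.9 to 17.6, counting error only) and the DMSO-only share 20.1% (19.7 to 20.5). Peaks of 1 gene are not replicates, so these shares are set side by side without a test.

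**Figure D1:**
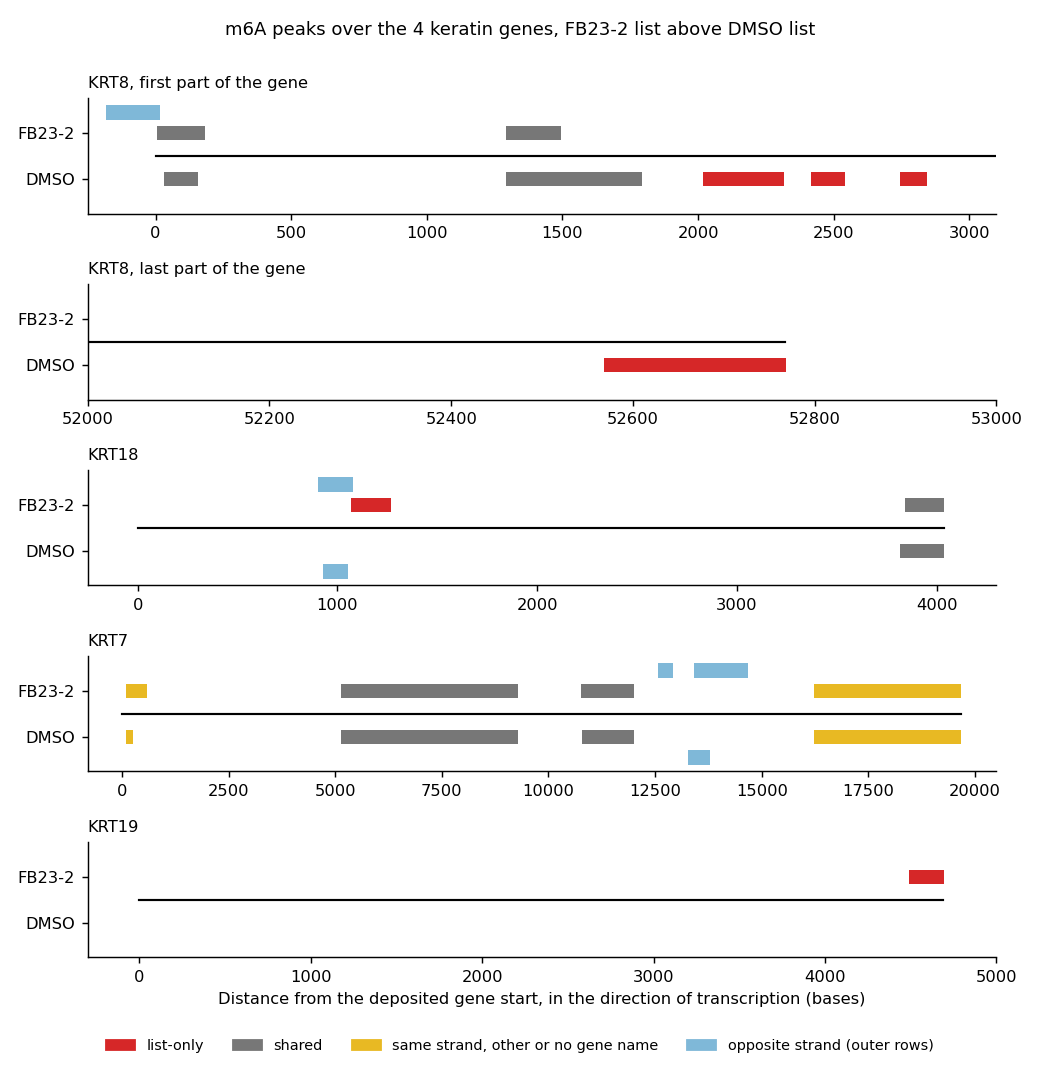
Peaks over each keratin gene, plotted by distance in bases from the deposited gene start in the direction of transcription, with the FB23-2 list above the gene line and the DMSO list below it. KRT8 has 4 DMSO-only peaks (red), 1 of them at the very end of the gene, KRT18 and KRT19 each have 1 FB23-2-only peak, and all KRT7 peaks are shared (grey). Yellow marks peaks on the same strand that carry another gene's name or none, and pale blue, in the outer rows, peaks on the opposite strand.

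KRT8, the type II partner of the hepatocyte pair, had 2 peaks in the FB23-2 list and 6 in the DMSO list. Both FB23-2 peaks were shared, and 4 of the DMSO peaks were DMSO-only. Its deposited span (ENSG00000170421) covers 52768 bases of the minus strand of chromosome 12, from 52897187 to 52949954. The peaks fell at its ends, with 49725 bases between the 3' end peak and the next DMSO peak and no peak of either list in between. All but 1 of the 8 KRT8 peaks therefore lay in the first 3 kb of the gene, and the remaining one at its 3' end. That 3' end peak is assigned to transcript ENST00000293308, and the others to ENST00000619952 or ENST00000546826. The positions along the gene are therefore not positions along 1 mRNA.

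The 3' end peak of KRT8, at 52897187 to 52897386, was found under DMSO only. It was annotated to the 3' UTR and stopped exactly at the gene end. Its log2 fold was 0.81, with a deposited p of 7e-307. The nearest FB23-2 peak on that strand lay 51075 bases away, near the KRT8 start. Peaks this significant were seldom without a partner, since 0.457% of the 4818 DMSO peaks with a p under 1e-300 were DMSO-only, and 0.0218% of the 4587 such FB23-2 peaks were FB23-2-only. From 1e-300 to 1e-50 the shares were 0.9% of FB23-2 and 1.5% of DMSO peaks. Its fold was low for that class. Only 17 of the 4818 had a log2 fold as low as that of KRT8 or lower, against a median of 2.86. Among the 51 DMSO peaks with such a p and a log2 fold under 1, 17.6% were DMSO-only. Of all peaks that stop at the annotated gene end, 2.51% were FB23-2-only and 5.31% DMSO-only.

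The other 3 DMSO-only peaks of KRT8 were weak and stood in a row near the gene start. They lay at 52947112 to 52947211 (log2 fold 0.84, p 0.0436), at 52947412 to 52947536 (1.23, p 0.00438) and at 52947637 to 52947936 (1.36, p 7.74e-05). The gaps between them were 200 and 100 bases, and a further 225 bases separated them from a shared peak. Peaks this weak often had no partner. Among peaks with a p between 1e-05 and 0.05, 48.6% of FB23-2 and 54.1% of DMSO peaks were list-only. These 3 peaks and the shared one beside them span 1550 bases and carry the class 3' UTR through 1 transcript of the gene (ENST00000619952), although they lie within 3 kb of the gene start.

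KRT8 had 2 shared peaks in each list, both near the gene start. In that transcript, the log2 fold was 1.18 for the FB23-2 peak (52948462 to 52948661) and 1.05 for the DMSO peak (52948162 to 52948661). Both stop at the same base on the side of the gene start, and the DMSO peak extends 500 bases against 200 for the FB23-2 peak. The 5' UTR peak lay at 52949774 to 52949948 under FB23-2 (1.08, p 4.40e-05) and at 52949799 to 52949923 under DMSO (0.99, p 0.00033), with the DMSO peak wholly inside the FB23-2 one.

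Its total of 4 DMSO-only and 0 FB23-2-only peaks was known when KRT8 was chosen and is set here beside all genes. Of 16810 genes with a peak, 0.613% had at least 4 more DMSO-only than FB23-2-only peaks. Among the 587 genes with 6 DMSO peaks it was 2.39%. KRT8 reached its number through 3 weak peaks and 1 very significant one. Another 6 genes had the same 4 counts as KRT8 (2 FB23-2 peaks, 6 DMSO peaks, 0 FB23-2-only, 4 DMSO-only). Nearest in median DMSO log2 fold (1.02 in KRT8) were SNTB1, a syntrophin (1.05), the NOTCH ligand JAG1 (1.08) and UBXN2B (0.93).

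KRT18, the type I partner, had 2 peaks in the FB23-2 list and 1 in the DMSO list. It lies on the plus strand of chromosome 12, from 52948871 to 52952906 (ENSG00000111057). Its 3' UTR peak was shared, with both versions stopping at the gene end, at 52952713 to 52952906 under FB23-2 (log2 fold 1.34) and 52952688 to 52952906 under DMSO (1.46). Both had a deposited p of 0. As with KRT8, that significance came with a low fold. Of the 4587 FB23-2 peaks with a p under 1e-300, 237 had a log2 fold no higher than that of KRT18, against a median of 2.91, and of the 4818 DMSO peaks 377 did.

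The FB23-2-only peak of KRT18 lay in an intron at 52949939 to 52950138, 1068 bases from the gene start, with a log2 fold of 1.08 and a p of 2.13e-22. The nearest DMSO peak on that strand was the 3' UTR peak, 2549 bases away. In the range of p from 1e-50 to 1e-05, 15.7% of FB23-2 peaks and 16.7% of DMSO peaks were list-only. Intronic peaks of any p lacked a partner more often, with 801 of 1941 FB23-2-only and 858 of 2036 DMSO-only. An excess of at least 1 FB23-2-only over DMSO-only peaks was found in 20.4% of all genes. The counts of KRT18 (2 FB23-2 peaks, 1 DMSO peak, 1 FB23-2-only) occurred in 542 other genes. Nearest to its DMSO log2 fold of 1.46 were DCAF6 (1.47), AP2S1, an adaptor complex subunit (1.46), and CWF19L1 (1.47).

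The 2 genes of the hepatocyte pair sit head to head, and their spans overlap by 1084 bases. Part of what carries the name KRT8 therefore lies over or beside KRT18. The 5' UTR peak of KRT8 lies inside the KRT18 span in both lists, on the other strand. Under FB23-2 it overlaps the intronic KRT18 peak by 10 bases. The shared KRT8 peak that ends at 52948661 stops 209 bases short of the KRT18 start in both lists, and the 3 weak DMSO-only peaks lie 934, 1334 and 1659 bases upstream of it. Whether the libraries kept strand is not given in the sources used here, so reads of KRT8 and KRT18 in the overlap cannot be told apart with certainty. The 3' end peaks of both genes lie outside it.

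**Figure D2:**
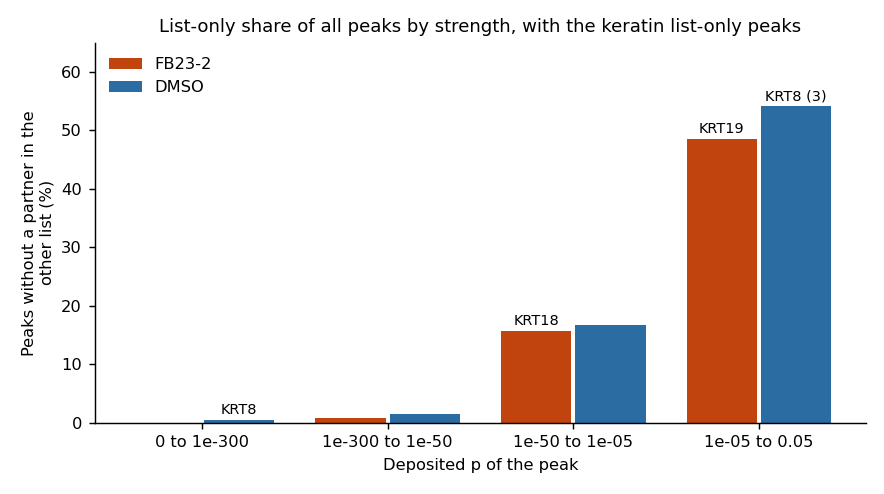
Share of all peaks without a partner in the other list (bars, percent) by the deposited p of the peak, FB23-2 left of DMSO. Labels place the 6 list-only keratin peaks: the KRT18 and KRT19 peaks and 3 of the KRT8 peaks fall where 15.7% to 54.1% of peaks have no partner, and the KRT8 3' end peak where 0.457% of DMSO peaks have none. Not drawn is the share among the 51 DMSO peaks of such a p with a log2 fold under 1, like that KRT8 peak, which is 17.6%.

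KRT7, a type II keratin of bile ducts and other ductal epithelia, had 2 shared peaks under either treatment and no list-only peak. It lies on the plus strand of chromosome 12 (ENSG00000135480). Its coding exon peak had the same borders in both lists, 52237664 to 52241796, with a log2 fold of 1.30 under FB23-2 and 1.24 under DMSO. The intronic peak lay at 52243287 to 52244516 under FB23-2 (1.37) and 52243312 to 52244516 under DMSO (1.51), so the borders differed on 1 side only. Of the 15351 genes with peaks in both lists, 52.2% had shared peaks only. The same counts were found in 1611 other genes, of which TMEM216 and SRRM5 were nearest in median DMSO log2 fold (1.38 each, against 1.38 in KRT7).

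The rule by gene name misses part of KRT7. The span from 52232520 to 52252186 held 4 peaks on its own strand in each list, of which 2 carry another gene's name or none. A peak at 52248737 to 52252186, identical in both lists, ends on the last base of KRT7 but is named for KRT86, a hair keratin whose deposited span begins inside it, and classed as 5' UTR. Its log2 fold was 1.65 under FB23-2 and 1.58 under DMSO, with p values of 2.07e-128 and 7.86e-147. A second shared peak, 100 bases past the KRT7 start, was classed as upstream with no gene name, at 52232620 to 52233118 under FB23-2 (1.40) and 52232620 to 52232769 under DMSO (1.69). Counted by position, KRT7 thus had a peak at its 3' end in both lists, as KRT18 did. On the opposite strand the antisense RNA KRT7-AS had 2 FB23-2 peaks (1.18 and 1.98) and 1 DMSO peak (1.06). The FB23-2 peak with the lower fold was FB23-2-only.

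KRT19, a type I keratin of bile ducts and progenitors that lacks the usual tail domain, had 1 FB23-2 peak and no DMSO peak. The peak lay in the 3' UTR on the minus strand of chromosome 17, at 41523617 to 41523816 (ENSG00000171345), and stopped at the gene end. Its log2 fold was 1.39 and its p 5.19e-05. The nearest DMSO peak on that strand lay 95625 bases away in another keratin, KRT17. Peaks in the FB23-2 list only were found in 3.88% of genes. A single FB23-2-only peak with none under DMSO was found in 533 other genes, among them COCH with a log2 fold of 1.40. With a p of this size, KRT19 stands among the weak peaks described for KRT8, and a list without a peak does not show that m6A was absent. By position its lack of a partner was less usual. Of FB23-2 peaks of any p, 2.51% of those stopping at a gene end were FB23-2-only, and 12.8% of those in 3' UTRs.

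**Figure D3:**
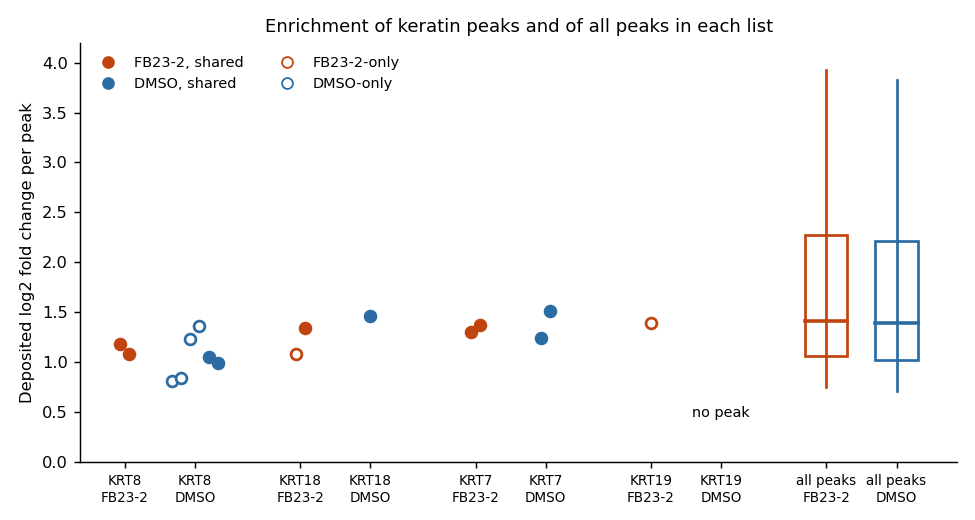
Deposited log2 fold of every keratin peak by gene and list, FB23-2 (orange) left of DMSO (blue), with filled points for shared and open points for list-only peaks. The boxes at the right give the middle 50% and the median of all peaks of each list, and their lines run from percentile 5 to 95. Every keratin peak lies between 0.81 and 1.51, within or below the middle 50% of its list.

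The keratin peaks were modestly enriched in both lists. The 7 FB23-2 peaks had log2 folds from 1.08 to 1.39 (median 1.30), and all 7 were below the median of the FB23-2 list, 1.42. The 9 DMSO peaks ran from 0.81 to 1.51 (median 1.23), and 7 were below the median of the DMSO list, 1.39. The 2 above it were the KRT18 3' UTR peak and the KRT7 intronic peak. They lie at percentiles 53.6 and 55.7 of the DMSO list. The lowest, the KRT8 3' end peak, lies at percentile 12.2 of the DMSO 3' UTR peaks. Within their own annotation class, the KRT7 peaks stood at percentiles 55.3 and 65.9 under FB23-2 and 56.5 and 75.9 under DMSO. The KRT19 peak stood at 52.3. The KRT18 3' UTR peak stood at 49.1 under FB23-2 and 55.8 under DMSO, and its intronic peak at 39.9. The KRT8 peaks ran from 12.5 to 38.1 under FB23-2 and from 10.4 to 50.2 under DMSO. Outside KRT7 the peaks spanned 100 to 500 bases, against a median of 575 bases in each list. By class, 3 of the 7 FB23-2 peaks and 6 of the 9 DMSO peaks were in 3' UTRs. Over all peaks, 23967 of 41838 FB23-2 and 24543 of 42813 DMSO peaks were in that class. Within it, 12.8% of FB23-2 and 15.6% of DMSO peaks were list-only. Of the 16 keratin peaks, 2 in each list stopped exactly at a gene end. Over all peaks, 7292 of 41838 FB23-2 and 7596 of 42813 DMSO peaks did so.

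Reads of KRT8 and KRT18 can be shared with their pseudogenes, processed copies scattered over the genome, which leaves the assignment of their peaks uncertain. The RefSeq gene table (GRCh38.p14) names 52 pseudogenes of KRT8, 68 of KRT18, 5 of KRT19 and 0 of KRT7. Of these 125, 5 had a peak, 3 of KRT8 and 2 of KRT18. Over them 1 of 7 FB23-2 peaks and 3 of 8 DMSO peaks were list-only, against 17.3% and 20.1% over all peaks.

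The KRT18 pseudogenes carried higher folds than KRT18 within the same lists. KRT18P12, on chromosome 1, had 2 shared peaks in each list, with log2 folds of 5.56 and 5.56 under FB23-2 and 5.75 and 5.25 under DMSO. They lay within its first 55.0% under FB23-2 and 53.0% under DMSO, not at its 3' end, unlike the 3' UTR peaks of KRT18. KRT18P55, on chromosome 17, had 1 shared peak of identical borders at its 3' end (5.05 under FB23-2 and 4.68 under DMSO). Its deposited span is 41798 bases, against 1273 for KRT18P12.

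The KRT8 pseudogenes were less even. KRT8P47, on chromosome 1, had no FB23-2 peak and 2 DMSO-only peaks (log2 folds 3.07 and 3.77). KRT8P3 had no FB23-2 peak and 1 DMSO-only peak (1.34). KRT8P12, on chromosome 3, had 4 FB23-2 peaks, 1 of them FB23-2-only (1.11), and 2 shared DMSO peaks. Its first peak, at 160565447 to 160567576, had the same borders in both lists, with 2.01 under FB23-2 and 2.29 under DMSO. KRT8 and 2 of its pseudogenes thus had DMSO-only peaks. Whether these share reads with KRT8 was not tested, since the tables hold no reads.

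**Figure D4:**
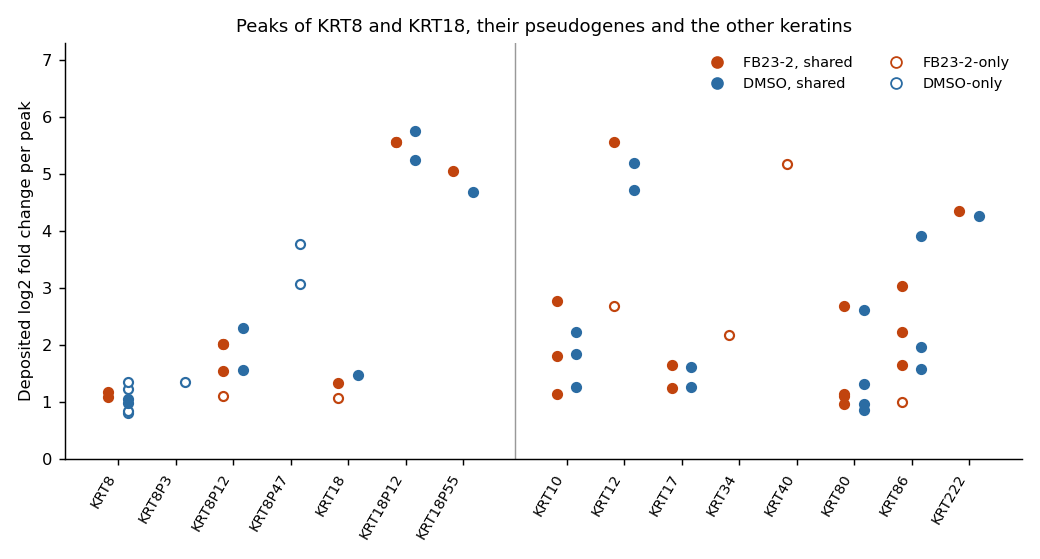
Deposited log2 fold of each peak for KRT8, KRT18 and their pseudogenes (left of the line) and for the other keratins with a peak (right of it), FB23-2 in orange left of DMSO in blue, with open points for list-only peaks. The peaks of KRT18P12 and KRT18P55 lie between 4.68 and 5.75, and those of KRT18 between 1.08 and 1.46.

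Another 8 keratins had a peak, with 18 FB23-2 and 15 DMSO peaks in all, of which 4 and 0 were list-only, against 17.3% and 20.1% over all peaks. With so few peaks no difference from those shares was read. KRT10, KRT17, KRT80 and KRT222 had shared peaks only, 3, 2, 4 and 1 in each list. KRT34 (log2 fold 2.17) and KRT40 (5.17) had 1 FB23-2-only peak and no DMSO peak. KRT12 had 1 FB23-2-only peak (2.68) beside a shared region of 5.57 under FB23-2 and 4.71 and 5.19 under DMSO. KRT86 had 1 FB23-2-only peak (1.01). The median log2 fold of these keratins was 1.99 under FB23-2 and 1.84 under DMSO, against 1.30 and 1.23 for the 4 simple epithelial keratins. The counts of KRT86 include the peak at the KRT7 end. The KRT222 peak lies mostly past its gene. It began at 99.1% of the deposited gene span and ran to 164.4% under FB23-2 and 163.7% under DMSO.

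Many desmosome and plakin genes, though not all, encode proteins that anchor intermediate filaments. Of the 14 desmosome and plakin genes listed, 13 had peaks in both lists. Among their peaks 20 of 93 FB23-2 and 18 of 85 DMSO peaks were list-only, close to the 17.3% and 20.1% over all peaks. DST, a spectraplakin, had 12 FB23-2-only and 5 DMSO-only peaks, MACF1, another, 3 and 6, PPL, periplakin, 1 and 3, and EPPK1, epiplakin, 0 and 2. The desmosomal genes DSP, JUP, DSG2 and PKP3 had shared peaks only, and PKP1 had no peak. DSC2 had 1 FB23-2-only and 1 DMSO-only peak. PKP2, PKP4 and EVPL had 1 FB23-2-only peak each, and PLEC had 1 DMSO-only peak. Among 13 other intermediate filament genes 10 had a peak, with 4 of 21 FB23-2 and 1 of 17 DMSO peaks list-only, beside the same shares of 17.3% and 20.1% over all peaks. INA had 2 FB23-2-only peaks, LMNB2 and PRPH 1 each, and LMNA, which encodes the A-type lamins, 1 DMSO-only peak. VIM, the mesenchymal filament, had 2 shared peaks in each list.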

How the data were processed

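Fragments of poly(A) RNA were, per the labels' protocols, precipitated with an m6A antibody and sequenced with its input. Per the submitters' processing notes, HISAT2, Cuffdiff and GRCh38 were used. The peak caller is not given in the sources used here, nor is any tool version. There is 1 table, deposited by the authors, per treatment, whose columns name no sample, so each was taken as that treatment's pooled list. Its log2 fold change, p-value and adjusted p-value for each peak are used as deposited. Deposited starts count from 0, since they lay 1 below the assigned gene's start in 5528 FB23-2 and 5661 DMSO peaks and equalled it in 0.

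Overlaps were computed with bedtools 2.31.1 over whole spans, including introns, in Python 3.11.15 with pandas 2.3.3, numpy 2.4.6, scipy 1.17.1 and matplotlib 3.10.9, and tested on simulated data. Intervals are exact (Clopper-Pearson). Named genes are the 4 keratins, their pseudogenes and other keratins with a peak, up to 4 related genes per list with the most list-only peaks, and up to 3 genes with the same counts as each keratin, nearest in median fold. Not all are printed. KRT7-AS, VIM, DSP, JUP, DSG2, PKP3, PKP1, DSC2, PKP2, PKP4, EVPL and PLEC were chosen after their values were seen. The members and lists were chosen with earlier results of these data known. All 5 pseudogenes with a peak matched the RefSeq table by symbol. No test between samples was run, and no sequence motif was searched.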

Additional observations from a re-analysis of the deposited data

How the results depend on the processing

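KRT7 had 0 list-only peaks in every setting run, and KRT18 had 1 FB23-2-only peak in all but the fold setting. At a fold of at least 4 no peak of the 4 keratins was left, so all of their counts, FB23-2-only and DMSO-only, were 0. At an adjusted p under 0.001, KRT8 and the 4 keratins together had 2 DMSO-only peaks each. With equal numbers of top peaks (80% of the shorter list), KRT19 had 0 FB23-2-only peaks, the 4 keratins 1 FB23-2-only and 1 DMSO-only peak, and KRT8 1 DMSO-only peak, that at its 3' end. With reciprocal overlap KRT8 had 1 FB23-2-only and 5 DMSO-only peaks, because 1 shared pair, of 200 bases under FB23-2 and 500 under DMSO, no longer matched. Any overlap, strand ignored and peaks within 100 bases merged left the totals at 2 FB23-2-only and from 3 to 4 DMSO-only peaks. The other keratins, with 4 FB23-2-only and 0 DMSO-only peaks, had 8 and 5 with reciprocal overlap. With strand ignored they had 3 and 0. The keratin pseudogenes, with 1 FB23-2-only and 3 DMSO-only peaks, then had 1 and 2. The smaller lists follow from fewer peaks by construction. Genes with at least 4 more DMSO-only than FB23-2-only peaks numbered 103, and from 4 (fold of at least 4) to 134 (reciprocal overlap) elsewhere. No paired analysis was possible because neither table names samples or replicates. Overlap by exon block and the count of an m6A motif were planned but not run, as the tables hold no blocks and no genome was used here.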
